A study of Mus musculus with 12 samples.

Results

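Gpr101, Gpr3, Gpr6 and Gpr12 encode orphan receptors known for switching on the stimulatory G protein Gs without a bound ligand, and their transcripts were followed in 12 pituitary RNA libraries of C57BL/6 mice. These 4 genes were taken by name from 55421 gene IDs in each count table, and all 4 were found and had counts in every library. The labels give 4 groups of 3 libraries. Libraries called cre_AA14 and cre_vehicle came from mice of genotype Cga-creAAVGpr101fl/fl, given AA14 or control vehicle for 1 week. Libraries called ctrl_AA14 and ctrl_vehicle came from mice of genotype Cga-ctrlAAVGpr101fl/fl with the same treatments. All groups thus carried a floxed Gpr101 gene, and the vehicle mice with the control virus carried it too. The labels do not say which part of the gene lies between the loxP sites. Cga encodes the common alpha subunit of the glycoprotein hormones, made in gonadotrophs and thyrotrophs, but the labels do not say which sequence drives cre, which cells took up the virus or the age and sex of the mice. They also do not say whether each library is a separate animal, and p-values here reflect only how far the libraries spread, which may be technical. Pituitaries were dispersed into single cells and analysed by flow cytometry before RNA extraction, and the labels name no sorted fraction.

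Gs activates adenylyl cyclases, which make cyclic AMP, and cyclic AMP releases the catalytic subunits of protein kinase A. In somatotrophs this pathway carries the signal of growth hormone-releasing hormone, and in humans extra copies of GPR101 on the X chromosome are known to cause X-linked acrogigantism. GPR3, GPR6 and GPR12 form a closely related trio that keeps cyclic AMP high in the brain, and GPR3 is also known for holding mouse oocytes in meiotic arrest. AA14 is named as a ligand in the title of the study, and the 2 by 2 design asks whether its action on the pituitary differs when Gpr101 is targeted by cre.

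The promoters are shown because these receptors raise cyclic AMP and because Gpr3 was highest in a library rich in stress-induced transcripts, so sites for factors that answer to either signal are of interest. Each sequence runs from 250 bases before the annotated start to 50 after it, 5′ to 3′ on the gene's own strand, from RefSeq on GRCm38.p6. Capitals mark the cyclic AMP response element TGACGTCA, its half-site TGACG and the AP-1 site TGANTCA, each searched on both strands. The TATA box TATAAA was searched too and had no match in any of them. All 4 genes lie on the minus strand.
Gpr101, chrX:57503708-57504007: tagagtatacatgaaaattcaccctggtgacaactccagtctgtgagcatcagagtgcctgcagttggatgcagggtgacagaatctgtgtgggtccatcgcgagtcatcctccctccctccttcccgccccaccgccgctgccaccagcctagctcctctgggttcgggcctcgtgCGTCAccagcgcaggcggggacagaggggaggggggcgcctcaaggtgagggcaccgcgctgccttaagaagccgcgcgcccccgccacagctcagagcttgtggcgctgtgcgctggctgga
Gpr3, chr4:133212487-133212786: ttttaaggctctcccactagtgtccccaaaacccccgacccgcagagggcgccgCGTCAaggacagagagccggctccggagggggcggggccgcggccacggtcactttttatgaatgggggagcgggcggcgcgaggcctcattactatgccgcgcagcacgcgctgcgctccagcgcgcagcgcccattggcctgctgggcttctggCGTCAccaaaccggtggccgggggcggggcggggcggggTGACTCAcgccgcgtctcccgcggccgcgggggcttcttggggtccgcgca
Gpr6, chr10:41072241-41072540: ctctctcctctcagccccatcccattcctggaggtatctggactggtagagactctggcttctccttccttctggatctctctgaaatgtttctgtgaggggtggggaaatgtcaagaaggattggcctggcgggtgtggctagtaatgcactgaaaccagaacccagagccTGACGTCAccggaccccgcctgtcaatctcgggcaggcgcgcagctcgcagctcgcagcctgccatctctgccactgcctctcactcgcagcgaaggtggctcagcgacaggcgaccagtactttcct
Gpr12, chr5:146585190-146585489, the first of 2 annotated starts: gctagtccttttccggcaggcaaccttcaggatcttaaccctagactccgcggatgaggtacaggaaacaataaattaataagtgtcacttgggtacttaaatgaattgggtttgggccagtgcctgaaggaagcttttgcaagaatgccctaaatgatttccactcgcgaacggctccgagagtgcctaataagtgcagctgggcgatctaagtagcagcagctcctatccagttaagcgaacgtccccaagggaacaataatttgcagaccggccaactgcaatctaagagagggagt
The Gpr6 promoter held the full cyclic AMP response element 78 bases before the start, a palindrome that also counts as a half-site on each strand. The full element occurred in 1.79% of 32851 mouse promoter windows of this length. The half-site occurred in 20.8% of them, and it stood once in the Gpr101 window, 73 bases before the start, and at 2 places in the Gpr3 window, 196 and 40 bases before it. The AP-1 site occurred in 7.81% of the windows, and the Gpr3 window held it across the start. Neither Gpr12 window held any of the 4 motifs. GC content was 64.3% for Gpr101, 72.0% for Gpr3, 58.7% for Gpr6 and 48.3% for the Gpr12 window printed, beside a median of 52.7% over all windows. These matches describe the letters only.

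Gpr101 (ENSMUSG00000036357, GRCm38 chromosome X, 57496668 to 57503757) is the targeted gene and checks the labels. Its coding sequence of 1533 bp lies within 1 of 2 exons, and no other annotated gene overlaps it. The counts behind it were 168, 134 and 48 in cre_AA14, 120, 321 and 84 in cre_vehicle, 242, 154 and 441 in ctrl_AA14, and 112, 86 and 1172 in ctrl_vehicle. Scaled to a common library size as CPM, the usual unit of sequencing depth, these were 2.57, 2.43 and 0.901 CPM in cre_AA14, 2.43, 4.29 and 1.29 CPM in cre_vehicle, 3.30, 2.20 and 6.60 CPM in ctrl_AA14, and 1.65, 1.22 and 16.1 CPM in ctrl_vehicle. The cre libraries were neither empty of Gpr101 nor separate from the control virus libraries, and 2 ctrl_vehicle libraries lay below 5 of the 6 and 4 of the 6 cre libraries. In cre mice the median was 2.43 CPM, against 2.75 CPM in mice with the control virus (n = 6 each). The difference in mean log2(CPM + 0.5) was -0.64, with an exact two-sided permutation p of 0.303. A count over the whole gene does not show whether a part of it had been cut out, and in bulk tissue fewer cells with the transcript and less transcript per cell cannot be told apart.

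**Figure D1:**
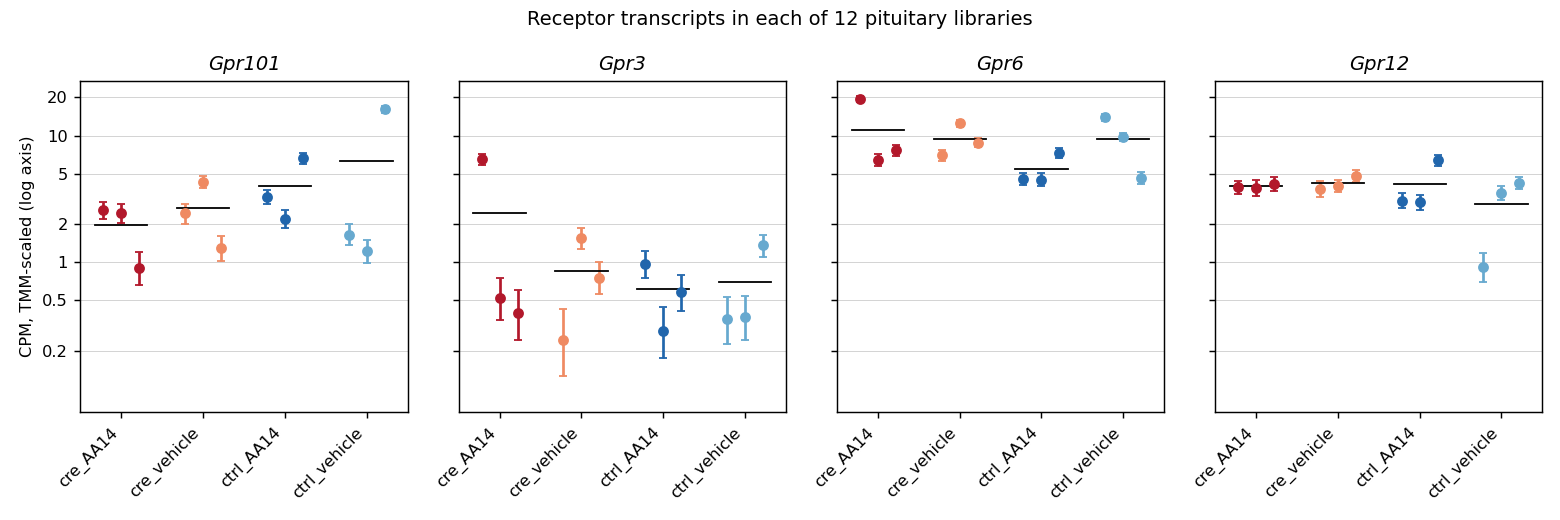
CPM of the 4 receptor genes in each library, on a log axis shared by the panels. Points are libraries in the order of their replicate numbers, bars are 95% exact binomial intervals that cover counting error only, and black lines are group means of 3 libraries. Gpr101 spans 0.901 to 16.1 CPM, while the 6 cre libraries of Gpr12 lie between 3.80 and 4.80 CPM.

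Because Gpr101 lies on the X chromosome, sex-linked transcripts were read as well. The Y-linked gene Ddx3y stood at 48.4 to 109 CPM over the 12 libraries, and Xist, the RNA that coats the inactive X chromosome in females, at 0 to 0.568 CPM. These levels are those of males in every library, whereas fl/fl is the usual way to write 2 floxed alleles.

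The highest value of Gpr101 weighed on its fitted changes in every comparison that uses ctrl_vehicle. In ctrl_vehicle 3 the list of 16 hypothalamic neuron markers summed to 632 CPM, 293 CPM of it from Avp, with all 16 detected. In the other 11 libraries the list summed to between 9.50 and 68.6 CPM. The range was 9.50 to 68.6 CPM in cre_AA14, 11.0 to 57.8 CPM in cre_vehicle, 11.3 to 15.3 CPM in ctrl_AA14 and 29.5 to 632 CPM in ctrl_vehicle. Oligodendrocyte markers, which belong to myelin, summed to 2635 CPM in ctrl_vehicle 3 and to 3498 CPM in cre_vehicle 2, the cre library with the highest Gpr101, beside a median of 159 CPM. The next value of Gpr101 below that maximum, 6.60 CPM in ctrl_AA14 3, came with only 15.3 CPM of the hypothalamic markers and 86.9 CPM of the oligodendrocyte markers. The part of admixed brain tissue in these values was not tested, apart from leaving libraries out.

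In the edgeR quasi-likelihood fit over all 22630 genes tested, 0 of the 4 receptors passed an adjusted p of 0.05 in any of 6 comparisons. The share of all genes called was 0.00442% for AA14 in control virus mice, 0% for AA14 in cre mice, 0.00442% for cre under vehicle, 0% for cre under AA14, 0.00442% for cre averaged over treatments and 0.00442% for the difference between the AA14 effects, so the count of 0 is what the background gives. No receptor reached an unadjusted p of 0.05 either, while the shares of all genes that did were 23.8%, 2.29%, 2%, 8.52%, 1.96% and 7.03% in the same order. By direction, higher and lower genes made up 8.03% and 15.8%, 1.2% and 1.09%, 0.932% and 1.06%, 7.08% and 1.44%, 1.03% and 0.924%, and 4.86% and 2.17% of the genes tested. DESeq2 called 0 of the 4 in each comparison, where it called 9.95%, 0.0619%, 0.084%, 0.15%, 0.0486% and 0.115% of all genes. limma-voom called 1 of the 4, Gpr6 for AA14 in control virus mice, where it called 15.1% of all genes, and 0 of the 4 in the others, where it called 0%, 0.00884%, 0%, 0.00884% and 0%.

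At an unadjusted p under 0.05, DESeq2 had 2 of the 4 for cre under AA14, Gpr3 and Gpr6, beside 10% of all genes. limma-voom had Gpr6 alone for cre under AA14, beside 26% of all genes, Gpr6 alone for AA14 in control virus mice, beside 33%, and Gpr12 alone for cre under vehicle, beside 4.39%. With 4 genes, 1 at such a p is what a background of 26% or 33% gives.

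For Gpr101 the log2 fold change of cre against control virus, averaged over treatments, was -1.14 (SE 0.63, 95% interval -2.52 to 0.24, edgeR adjusted p = 1.00). Without ctrl_vehicle 3 it was -0.069, and the permutation difference was -0.23 (exact p = 0.604), so that library carried most of the lower mean in cre mice. Under AA14, where ctrl_vehicle takes no part, the value was -1.03 (SE 0.89, edgeR adjusted p = 0.730), from 1.97 ± 0.927 CPM in cre_AA14 and 4.03 ± 2.29 CPM in ctrl_AA14 (SD, n = 3 each), and it was -0.49 without ctrl_AA14 3. Under vehicle it was -1.24 (SE 0.89, edgeR adjusted p = 1.00), from 2.67 ± 1.52 CPM in cre_vehicle and 6.32 ± 8.46 CPM in ctrl_vehicle, and it turned to 0.89 without ctrl_vehicle 3. The response of Gpr101 to AA14 in control virus mice had the same weakness. Its log2 fold change was -0.65 (SE 0.88, edgeR adjusted p = 0.683). Without ctrl_vehicle 3 it was 1.49 (SE 0.64, unadjusted p = 0.0423, edgeR adjusted p = 0.348), since the other 2 ctrl_vehicle libraries lay below all 3 ctrl_AA14 libraries. In that fit 2 of the 4 receptors had an unadjusted p under 0.05, in opposite directions, beside 4.58% of all genes higher and 9.37% lower. The other was Gpr6, with a log2 fold change of -1.12 (edgeR unadjusted p = 0.0331). The nuclear-retained RNA Malat1 stood at 1322 to 1560 CPM in ctrl_AA14 and at 328 and 549 CPM in those 2 ctrl_vehicle libraries. AA14 and this library state cannot be told apart here. In cre mice the Gpr101 value for AA14 was -0.44 (SE 0.89, edgeR adjusted p = 1.00), and 0.087 without cre_vehicle 2.

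Gpr6 (ENSMUSG00000046922, chromosome 10, 41069977 to 41072285), a receptor best known from striatal neurons, was the most abundant of the 4 per length. It stood at 19.4, 6.42 and 7.64 CPM in cre_AA14, 6.98, 12.5 and 8.80 CPM in cre_vehicle, 4.58, 4.49 and 7.32 CPM in ctrl_AA14, and 14.0, 9.79 and 4.64 CPM in ctrl_vehicle. Every pair of groups overlapped, and cre_AA14 1 stood above the rest. Group means were 11.1 ± 7.16 CPM in cre_AA14, 9.41 ± 2.79 CPM in cre_vehicle, 5.46 ± 1.61 CPM in ctrl_AA14 and 9.46 ± 4.67 CPM in ctrl_vehicle (SD, n = 3 each). For AA14 in control virus mice the log2 fold change was -0.79 (SE 0.48, edgeR adjusted p = 0.328). It was negative under all 19 alternatives, with adjusted p from 0.0480 in limma-voom with quality weights to 0.664. For AA14 in cre mice it was 0.24 (SE 0.48, edgeR adjusted p = 1.00), turning to -0.43 without cre_AA14 1. The difference between these responses, cre minus control virus, was 1.04 (SE 0.68, 95% interval -0.44 to 2.52, edgeR adjusted p = 0.642). For cre under AA14 the value was 1.03 (SE 0.48, edgeR adjusted p = 0.590) and 0.37 without cre_AA14 1, while under vehicle it was -0.0074 (SE 0.48).

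Gpr6 moved with a difference between libraries that divided both cre groups and, in control virus mice, coincided with AA14. This was a split at 1000 CPM of Malat1, set after its values were seen. In the 5 libraries with 1105 to 1560 CPM of the nuclear-retained RNA Malat1, Gpr6 lay between 4.49 and 7.32 CPM. In the other 7 libraries, with 199 to 549 CPM of Malat1, it lay between 4.64 and 19.4 CPM, and 6 of these 7 were above all 5. Within the 5 libraries rich in Malat1, Gpr6 was at 6.98 and 6.42 CPM in the cre libraries and at 4.49 to 7.32 CPM in the control virus libraries. All 3 ctrl_AA14 libraries and none of the ctrl_vehicle libraries belong to the 5, so AA14 and this library state cannot be told apart for Gpr6 in control virus mice. The melanotroph markers, genes of the intermediate lobe, summed to 1628 CPM in cre_AA14 1 and 1240 CPM in ctrl_vehicle 1, the 2 libraries with the highest Gpr6, beside a median of 808 CPM. The next-highest sum was 1046 CPM in cre_vehicle 1, which had 6.98 CPM of Gpr6. In cre_vehicle 2, with 12.5 CPM of Gpr6, the sum was 824 CPM. The 9 striatal neuron markers gave no single order. Their sum was highest in cre_AA14 1 at 379 CPM, of which 239.8 CPM were Drd2, whereas their mean log2(CPM + 0.5) was highest in ctrl_vehicle 3 at 4.03, with 3.13 in cre_AA14 1, and ctrl_vehicle 3 had only 4.64 CPM of Gpr6. The part of these cell types in the Gpr6 values was not tested.

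**Figure D2:**
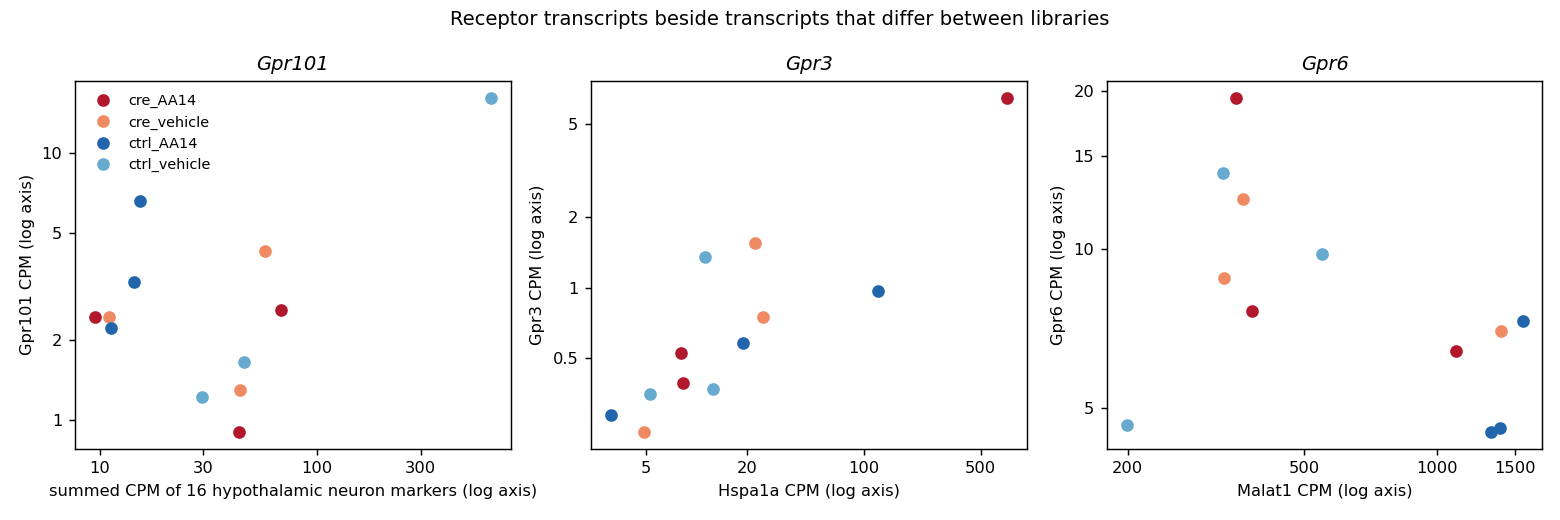
Each point is a library, coloured by group, with a receptor's CPM on the vertical axis against another transcript level on the horizontal axis, all on log axes. The highest Gpr101 value coincides with the highest hypothalamic sum of 632 CPM, the highest Gpr3 value with the highest Hspa1a of 717 CPM, and the 5 libraries rich in Malat1 hold Gpr6 at 7.32 CPM or less.

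Gpr3 (ENSMUSG00000049649, chromosome 4, 133209340 to 133212536) was the scarcest, with 12 to 423 counts in a library. It stood at 6.48, 0.526 and 0.394 CPM in cre_AA14, 0.243, 1.55 and 0.754 CPM in cre_vehicle, 0.967, 0.286 and 0.583 CPM in ctrl_AA14, and 0.354, 0.369 and 1.36 CPM in ctrl_vehicle. The groups overlapped, and cre_AA14 1 alone exceeded 2 CPM. That library also had the highest levels of Fos at 662 CPM, the stress-induced factor Atf3 at 175 CPM, the cyclic AMP-inducible receptor gene Nr4a1 at 1123 CPM and the heat shock chaperone Hspa1a at 717 CPM, where the next-highest libraries had 233, 3.59, 391 and 122 CPM. These 4 genes were chosen after their values were seen. Gpr3 shares 204 exon bases with Cd164l2 on the opposite strand, and no source used here gives the strand setting of the counting, so reads of the 2 genes may be mixed. Cd164l2 was also highest in cre_AA14 1, at 4.17 CPM, with 2.51 CPM in the next library. The part of stress-induced transcription or of overlapping reads in the high Gpr3 value was not tested.

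The fitted changes of Gpr3 followed that library. For cre under AA14 the log2 fold change was 2.01 (SE 1.07, 95% interval -0.34 to 4.36, edgeR adjusted p = 0.617), and -0.41 without cre_AA14 1. For AA14 in cre mice it was 1.53 (SE 1.05, edgeR adjusted p = 1.00), and -0.90 without that library. In control virus mice, where both groups lay between 0.286 and 1.36 CPM, the value for AA14 was -0.18 (SE 1.05, edgeR adjusted p = 0.935), and 0.76 without ctrl_vehicle 3. For cre under vehicle it was 0.30 (SE 1.04, edgeR adjusted p = 1.00). The 2 libraries rich in oligodendrocyte markers, cre_vehicle 2 and ctrl_vehicle 3, held the next-highest Gpr3 values.

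Gpr12 (ENSMUSG00000041468, chromosome 5, 146582398 to 146585239), the remaining one of the related trio, was the steadiest in both cre groups. Gpr6 varied less in the control virus groups, where its coefficients of variation between libraries were 29.4% in ctrl_AA14 and 49.3% in ctrl_vehicle. Those of Gpr12 were 47.1% and 60.3%. Gpr12 stood at 3.90, 3.86 and 4.15 CPM in cre_AA14 and 3.80, 4.01 and 4.80 CPM in cre_vehicle. In the control virus groups it stood at 3.06, 2.96 and 6.39 CPM in ctrl_AA14, and 0.915, 3.50 and 4.21 CPM in ctrl_vehicle. Both cre groups lay within the range of the control virus libraries, which held the lowest and the highest value. In cre_AA14 the coefficient of variation between libraries was 3.90%, below the 6.62% that counting error alone gives at these counts, while in ctrl_vehicle it was 60.3% against 8.84%. The log2 fold change for AA14 was -0.082 in cre mice (SE 0.47, 95% interval -1.12 to 0.96, edgeR adjusted p = 1.00) and 0.52 in control virus mice (SE 0.48, edgeR adjusted p = 0.524). For cre averaged over treatments it was 0.24 (SE 0.34, 95% interval -0.49 to 0.98, edgeR adjusted p = 1.00), and 0.033 without ctrl_vehicle 1.

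**Figure D3:**
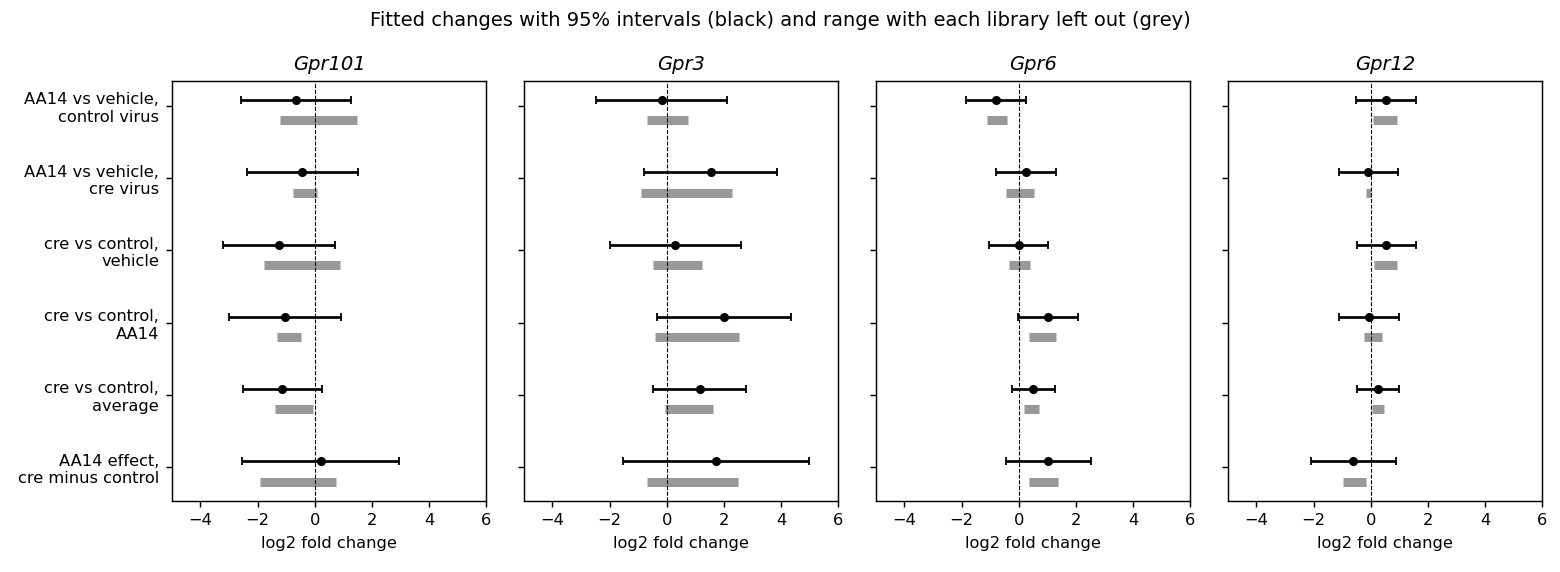
Log2 fold changes of the 4 receptors in 6 comparisons from the edgeR fit, as points with 95% intervals, with grey bars for the range of the point when each of the 12 libraries is left out. Every interval includes 0, and grey bars of Gpr101 and Gpr3 cross 0 where a single library sets the sign, as for Gpr101 under vehicle from -1.77 to 0.89.

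Libraries of 1 group often differed by more than counting error. Of 12 pairs of libraries within a group, the 95% counting intervals were separate in 10 for Gpr101, 8 for Gpr3, 10 for Gpr6 and 4 for Gpr12. Those of Gpr12 were all in the control virus groups, 2 of 3 pairs in ctrl_AA14 and 2 of 3 in ctrl_vehicle. Coefficients of variation for Gpr101 were 47.1% in cre_AA14, 56.8% in cre_vehicle, 56.7% in ctrl_AA14 and 134% in ctrl_vehicle, beside 6.56% to 10.7% from counting.

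Compared per length, as CPM per kb of merged exon, Gpr6 averaged 4.97 ± 2.50, Gpr12 1.51 ± 0.505, Gpr101 0.693 ± 0.774 and Gpr3 0.423 ± 0.632 (SD, n = 12 libraries). Gpr6 was above Gpr12 and above Gpr3 in 12 of 12 libraries and above Gpr101 in 11. Gpr12 was above Gpr101 in 11 of 12. Gpr101 was above Gpr3 in 10 of 12 by exon length and in 11 by coding length, with a median ratio of 2.03 by exon length. Their ranges over the libraries, 0.167 to 2.97 and 0.0888 to 2.37 CPM per kb, largely coincided, and the order did not hold in every library. The same order was found per kb of coding sequence.

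The 4 were ranked among 47 genes of Gs-coupled receptors, with 9 other orphan or constitutively active receptors and 34 receptors of known ligands. Gpr6 held place 3, Gpr12 place 7, Gpr101 place 13 and Gpr3 place 18 by mean CPM per kb. For Gpr101 and Gpr3 the mean, and so the place, leaned on 1 library each. Gpr101 reached 2.97 CPM per kb in ctrl_vehicle 3 beside a median of 0.449. Gpr3 reached 2.37 CPM per kb in cre_AA14 1 beside a median of 0.203. The mean of Adcyap1r1 also includes a high value in ctrl_vehicle 3, given below. Ghrhr, through which hypothalamic GHRH drives somatotrophs, was first at 54.3 CPM per kb, and Crhr1, the receptor for corticotropin-releasing hormone, was second at 5.11. The neighbours of Gpr6 in this order, Crhr1 and the receptor of the pituitary adenylyl cyclase-activating peptide Adcyap1r1 (4.83 CPM per kb), lay within 1 SD of it. Calcrl, which serves adrenomedullin and calcitonin gene-related peptide, stood at 2.26 CPM per kb, above Gpr12. Of the other orphans, Gpr61, next below Gpr12 in this order, and the proton-sensing Gpr65 (0.977 CPM per kb) were more abundant than Gpr101 on average, and Adgrg2 (0.377) and the ciliary receptor Gpr161 (0.309) were less abundant.

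**Figure D4:**
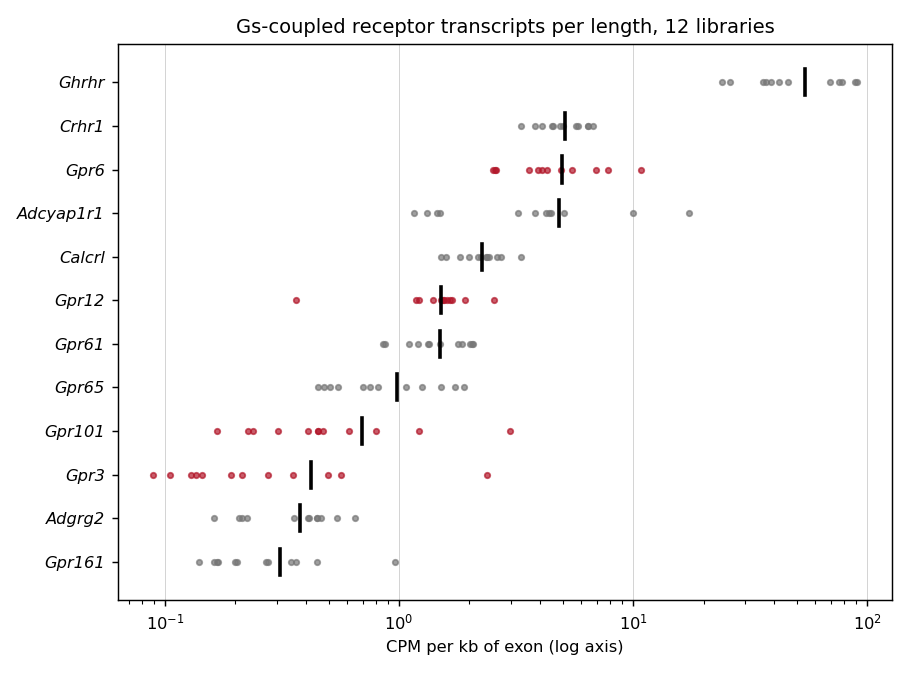
CPM per kb of merged exon, on a log axis, for the 12 Gs-coupled receptor genes named in the text, of 47 ranked. Points are the 12 libraries, leaving out any at 0, black ticks are means, and red marks the 4 receptors. Ghrhr at 54.3 stands apart, and Gpr101 at 0.693 and Gpr3 at 0.423 spread across many of their neighbours.

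Of the 9 other orphan or constitutively active receptors 7 could be tested, and edgeR called 0 in any comparison, beside at most 0.00442% of all genes. For AA14 in control virus mice 4 were positive and 3 negative, with a median log2 fold change of 0.17, where the median of all genes was -0.016. Gpr161 was the 1 with an unadjusted p under 0.05, at 1.39, 0.973 and 1.42 CPM in ctrl_AA14 and 2.54, 2.42 and 6.67 CPM in ctrl_vehicle (a log2 fold change of -1.62 with an SE of 0.48, edgeR adjusted p = 0.141). The highest of these was ctrl_vehicle 3, the library rich in brain markers, and without it the log2 fold change was -0.97 (SE 0.43, edgeR unadjusted p = 0.0441, adjusted p = 0.350). Adgrg2 then also had an unadjusted p under 0.05, in the other direction (log2 fold change 1.09, SE 0.41, edgeR adjusted p = 0.338). Of all genes 4.58% were higher and 9.37% lower at such a p in that fit. In cre mice the median of these receptors was -0.49 for AA14.

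Of 34 receptors of known ligands 31 could be tested, and edgeR called 0, beside at most 0.00442% of all genes in any comparison. For AA14 in control virus mice 5 were positive and 26 negative with a median of -0.82, and 1 higher and 3 lower genes had an unadjusted p under 0.05, which is 3.23% and 9.68% beside 8.03% and 15.8% of all genes. Ghrhr was at 282 ± 24.2 CPM in ctrl_AA14 and 123 ± 37.9 CPM in ctrl_vehicle (log2 fold change 1.20, SE 0.42, edgeR adjusted p = 0.144). Crhr1 was at 10.2 ± 0.900 and 13.4 ± 2.12 CPM in the same groups (log2 fold change -0.40). Adcyap1r1 was at 28.0, 21.3 and 7.67 CPM in ctrl_AA14 and at 28.9, 29.4 and 114 CPM in ctrl_vehicle (log2 fold change -1.60), the last from ctrl_vehicle 3, and without that library its log2 fold change was -0.62. The medians of neuron, hypothalamic neuron, and astrocyte and pituicyte markers in this comparison were -1.66, -4.90 and -1.51. Without ctrl_vehicle 3, 13 receptors of known ligands were positive and 18 negative, with a median of -0.24, and Ghrhr was at 0.98 (SE 0.45, edgeR adjusted p = 0.364). In cre mice 6 were positive and 25 negative, with a median of -0.36.

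Downstream of the receptors, 0 of the 22 genes from Gs to protein kinase A and its transcription factors were called by edgeR. It called at most 0.00442% of all genes in any comparison, so this count is what the background gives. For AA14 in control virus mice 4 were positive and 18 negative, with a median of -0.60, and 8 lower genes had an unadjusted p under 0.05, which is 36.4% beside 15.8% of all genes. In cre mice 6 were positive and 16 negative with a median of -0.13, and 0 had such a p. For cre under AA14, 2 of the 22 were higher at such a p, 9.09% beside 7.08% of all genes, and for the difference between AA14 effects 4 were, 18.2% beside 4.86%. Results for these libraries were known when the list was made, so its counts are no independent evidence. Prkaca, which encodes a kinase subunit that cyclic AMP sets free, stood at 50.6 ± 14.9 CPM in ctrl_AA14 and 148 ± 32.4 CPM in ctrl_vehicle (a log2 fold change of -1.55 with an SE of 0.44, edgeR adjusted p = 0.141). The regulatory subunit Prkar1b was at 83.4 ± 17.0 and 186 ± 102 CPM in these groups (log2 fold change -1.16 with an SE of 0.38, edgeR adjusted p = 0.141). Prkar1a was at 548 ± 30.7 and 616 ± 78.4 CPM (log2 fold change -0.17). Gnas, whose products include the alpha subunit of Gs, had a log2 fold change of -0.22, at 2896 ± 294 CPM in ctrl_AA14 and 3381 ± 515 CPM in ctrl_vehicle, and the adenylyl cyclase Adcy6 had one of 0.08. Without ctrl_vehicle 3, 6 of the 22 were lower at an unadjusted p under 0.05, beside 9.37% of all genes, with a median of -0.35. Prkaca was then at -1.37 and Prkar1b at -0.62. All 3 ctrl_AA14 libraries are among the 5 rich in Malat1. In control virus mice that difference between libraries cannot be told apart from AA14, for these genes as for the Gs-coupled receptors.

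The receptors varied together to unequal degrees. Over the 12 libraries, Spearman's rho of log2(CPM + 0.5) was 0.59 between Gpr101 and Gpr3, 0.31 between Gpr101 and Gpr12 and -0.24 between Gpr101 and Gpr6. Within the related trio it was 0.25 for Gpr3 and Gpr6, 0.51 for Gpr3 and Gpr12 and 0.10 for Gpr6 and Gpr12. These values are descriptions, since the libraries share treatment, virus and library state.

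Of 14275 genes averaging 1 CPM or more, those most like Gpr101 over the 12 libraries were Nap1l5 (Spearman's rho 0.96, Pearson's r 0.93), Idi1 (rho 0.94), Fabp5 (rho 0.91), Matk (rho 0.90) and Dbi (rho 0.90). Without ctrl_vehicle 3 their rho lay between 0.86 for Matk and Dbi and 0.95 for Nap1l5, which ranged from 273 to 473 CPM. The genes most like Gpr3 were Hsp90ab1 (rho 0.96), an HSP90 chaperone, Ppp3r1 (rho 0.95), Pla2g7 (rho 0.93), Cryab (rho 0.91) and Lgi3 (rho 0.91). Of these, Hsp90ab1 and Pla2g7 were highest in cre_vehicle 2 and the other 3 in ctrl_vehicle 3, the 2 libraries rich in oligodendrocyte markers. The genes most like Gpr6 were Slurp2 (rho 0.98), Ap1s3 (rho 0.94), Rab17 (rho 0.92), Dmrt2 (rho 0.92) and Arl6ip6 (rho 0.92), each highest in cre_AA14 1 or ctrl_vehicle 1. For Gpr12 the highest rho was 0.85, with Tram2, followed by Oxct1 (0.84), Ephx2 (0.83), Ptpru (0.83) and Klhl13 (0.83). Pearson's r was lower for these, from 0.33 for Ptpru to 0.75 for Ephx2. For the Gpr3 genes it ran from 0.43 for Lgi3 to 0.79 for Hsp90ab1. Without cre_AA14 1 the latter ran from 0.90 for Ppp3r1 to 0.92 for Pla2g7. The highest of that many rho values over 12 libraries is large for any gene, and these names were picked for it.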

How the data were processed

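Per the labels' protocols, TRIzol RNA was made into NEBNext Ultra libraries, read as paired 150 bp reads on a NovaSeq instrument and mapped with HISAT2 2.0.0. The submitters' processing notes name the GRCm38 build, DESeq 1.8.3 and featureCounts 1.5.0-p3. The authors deposited raw counts per gene, per the file headers, with no normalization. No source used here gives the annotation release, strand setting or treatment of shared reads. Each table held 55421 gene IDs, 55154 with a symbol. Library totals ranged from 48693682 to 73388221 counts. No column belonged to another sample.

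Positions and exon lengths came from GENCODE M21 on GRCm38, promoters from RefSeq on GRCm38.p6. Genes were filtered with filterByExpr in edgeR 4.0.16, which kept 22630 genes and all 4 receptors, and libraries were scaled with TMM factors. A model with 1 mean per group over 12 libraries was tested with quasi-likelihood F tests and Benjamini-Hochberg adjustment at 0.05. Each SE was derived from the fold change and its F statistic, and intervals use that SE. CPM used the same factors. Exact binomial 95% (Clopper-Pearson) intervals cover counting error only. Gpr101 was compared with an exact permutation test. The common biological coefficient of variation was 0.445. The edgeR steps were tested on simulated data.

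The receptors, lists and tests were chosen with earlier results of these data known. By rule, the 4 receptors, the 5 genes of highest CPM per kb in each list, called list genes and the 5 genes most like each receptor are named, apart from some items that are not reported here. Gpr161 also has an unadjusted p under 0.05. Alternatives were RLE factors, no filter, DESeq2 1.42.0, limma-voom 3.58.1 with quality weights, the groups compared only, the replicate number as a block, other pseudocounts, coding length, and libraries left out. The gene lists without ctrl_vehicle 3 were added after seeing the data.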

Additional observations from a re-analysis of the deposited data

Results flagged for a closer look

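Of 16 sets of 6 libraries looked at (each receptor in the cre virus, control virus, AA14 and vehicle libraries), 8 held an extreme value that lay apart from the others by more than Dixon's 95% critical value of 0.625 for 6 samples. Chance flags about 1 in 20 such sets when values are normal, and CPM are skewed. The sets share libraries, so the 8 are not independent.

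Gpr101 in ctrl_vehicle 3, at 16.1 CPM, was apart from the other control virus libraries, the next of which had 6.60 CPM, and from the other vehicle libraries, the next of which had 4.29 CPM. Gpr3 in cre_AA14 1, at 6.48 CPM, was apart among the cre libraries (next 1.55 CPM) and among the AA14 libraries (next 0.967 CPM). Gpr6 in the same library, at 19.4 CPM, was apart among the AA14 libraries (next 7.64 CPM). Gpr12 was apart at 6.39 CPM in ctrl_AA14 3 among the AA14 libraries (next 4.15 CPM). Its 4.80 CPM in cre_vehicle 3 was apart among the cre libraries (next 4.15 CPM). Its 0.915 CPM in ctrl_vehicle 1 was the low extreme of the vehicle libraries (next 3.50 CPM).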

How the results depend on the processing

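No receptor was called by edgeR under RLE factors, without the filter, with only the groups compared, with the replicate block, without the 2 libraries rich in oligodendrocyte markers or with any library left out (0 calls as lowest and highest), nor by DESeq2. With limma-voom 1 of 4 was called, Gpr6 for AA14 in control virus mice (log2 fold change -1.08, adjusted p = 0.0480, against 0.0480 to 0.664 over its alternatives). The cause was not tested. Per kb of coding sequence the means became 2.44 for Gpr101, 1.17 for Gpr3, 8.15 for Gpr6 and 3.79 for Gpr12, since coding sequence is shorter than the exons. The background of all genes called depended strongly on the tool: for AA14 in control virus mice edgeR called 1 gene, DESeq2 2251, limma-voom 3409 and edgeR with only the groups compared 2266. For AA14 in cre mice, cre under vehicle, cre under AA14, the average cre effect and the difference, DESeq2 called 14, 19, 34, 11 and 26 genes and limma-voom 0, 2, 0, 2 and 0.

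The direction turned in these cases, with the cause not tested. In limma-voom Gpr101 was at 0.82 for AA14 in control virus mice, 0.052 for cre under vehicle and -1.38 for the difference between AA14 effects. Gpr3 was at 0.39 for AA14 in control virus mice, -0.19 for AA14 in cre mice and -0.58 for the difference. Gpr6 was at -0.076 for AA14 in cre mice and Gpr12 at 0.23 for cre under AA14. Without the libraries rich in oligodendrocyte markers Gpr101 was at 1.52 for AA14 in control virus mice, 0.082 for AA14 in cre mice, 0.39 for cre under vehicle and -1.44 for the difference, and Gpr3 at 0.79 for AA14 in control virus mice. For cre under vehicle, Gpr6 was at 0.020 with RLE factors and with DESeq2 and at 0.10 with the replicate block. That block gave 0.043 for Gpr12 under AA14 and -0.070 for Gpr101 in the difference.

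With each library left out, Gpr101 ranged from -1.20 to 1.49 for AA14 in control virus mice, -0.77 to 0.087 for AA14 in cre mice, -1.77 to 0.89 for cre under vehicle and -1.93 to 0.74 for the difference. Gpr3 ranged from -0.70 to 0.76 for AA14 in control virus mice, -0.90 to 2.30 for AA14 in cre mice, -0.47 to 1.24 for cre under vehicle, -0.41 to 2.52 for cre under AA14, -0.058 to 1.62 for the average cre effect and -0.70 to 2.48 for the difference. Gpr6 ranged from -0.43 to 0.51 for AA14 in cre mice and -0.33 to 0.38 for cre under vehicle, and Gpr12 from -0.16 to 0.023 for AA14 in cre mice and -0.24 to 0.39 for cre under AA14. The permutation difference of Gpr101 ranged from -0.88 to -0.23 with a library left out and kept its sign under every other pseudocount and scaling.

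The labels share replicate numbers, but these did not pair the libraries: 5 of 18 same-numbered pairs across groups had a correlation of deviations over 0.1, from -0.51 to 0.33, and the best correlate had the same number in 8 of 36 cases. The replicate block left the number of genes called over the whole table at 1 for AA14 in control virus mice, and the paired permutation p of Gpr101 was 0.438.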
